A study of Mus musculus with 4 samples.

Results

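The genes described here are 34 members of the inflammasome and pyroptosis machinery: nucleotide-binding leucine-rich repeat (NLR) sensors, 2 sensors outside that family, the shared adaptor, inflammatory caspases, gasdermins, the cytokines they release and a few regulators. They were taken by symbol from a count table of 46095 symbols, and all 34 were present. The table holds total RNA of colon taken at postnatal day 21 from mice of the C57BL/6 strain. WT 1 and WT 2 are libraries of wild-type mice, and Esr2-KO 1 and Esr2-KO 2 are libraries of mice whose genotype is given as Esr2-/-, Esr2 being the gene of estrogen receptor β. No treatment is named in the labels, and neither the deleted part of Esr2, the sex, the segment of colon nor the hour of collection is given. The labels do not say whether libraries of a genotype came from separate animals, so that p-values measure the spread between these libraries, which may be technical. The series title names NLRP6, and the comparison asks how these genes differ in colon without the receptor.

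Inflammasomes are protein platforms that assemble in the cytosol when a sensor meets a microbial product or a sign of cell damage. The sensor recruits the adaptor ASC (Pycard), which gathers caspase-1 (Casp1). The caspase then matures the cytokines IL-1β and IL-18 and cuts gasdermin D (Gsdmd), whose freed end opens pores in the plasma membrane. In mice caspase-11 (Casp4) binds bacterial lipopolysaccharide directly and also cuts gasdermin D. In the gut much of this machinery is found in epithelial cells, where IL-18 is made as a stored precursor, while IL-1β and NLRP3 are better known from myeloid cells.

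Library totals ran from 30826790 to 33709643 counts. Genes of the exocrine pancreas stood apart: an 18-gene list of acinar markers took 18.6% of the counts of Esr2-KO 2 and 0.0169% to 0.0897% of the other libraries. Within each genotype counts spread beyond what sampling gives, at a chi-square per degree of freedom of 42.7 for WT and 519 for Esr2-KO. Acinar genes were not left out of these values, and their part in the value for Esr2-KO was not tested. Esr2 itself had 21 and 13 counts in the WT pair against 6 and 16 in the Esr2-KO pair (log2 fold change -0.32 ± 0.77, SE, n = 2 per group, edgeR adjusted p = 0.854). This value was 0.042 if WT 1 was left out and 0.35 if Esr2-KO 1 was, so the counts did not check the genotype. The labelled tissue was matched by colonic epithelial products such as Car1 and Muc2, whose 6-gene list held 1.23% to 2.42% of the counts with no member at 0.

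Of the 34 genes 31 passed the low-count filter and entered edgeR's quasi-likelihood test, and p was adjusted over all genes by the Benjamini-Hochberg method. Il18 and Nlrx1 rose in Esr2-KO colon, each about 2-fold, and were the 2 members past an adjusted p of 0.05. That is 6.45% of the tested members, against 2.69% of all 17169 genes tested, of which 1.3% were higher and 1.39% lower. Of the members 0 passed in the lower direction, where edgeR gave 4 at an unadjusted p under 0.05, DESeq2 2 past the adjusted threshold, edgeR's likelihood ratio test 1 and limma-voom 0. The tested members had a median log2 fold change of -0.16, with 11 positive and 20 negative, beside 0.00 over all genes. It was 0.018 if WT 2 was left out. In 17 of the 31 both Esr2-KO libraries lay on one side of both WT libraries, 7 above and 10 below. This is 54.8%, beside 54.7% of all tested genes (27% above and 27.7% below), a share near the background. In bulk tissue fewer cells of a type and less RNA per cell cannot be told apart.

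**Figure D1:**
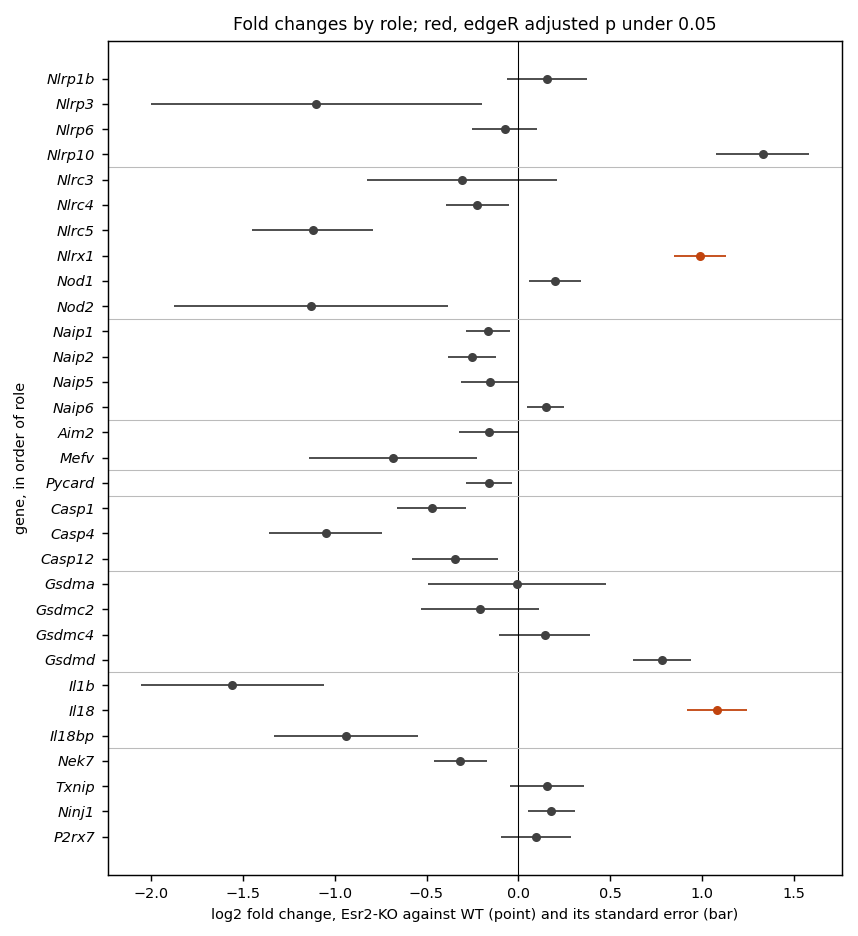
Log2 fold change of Esr2-KO against WT (horizontal axis) for the 31 tested genes, listed by role from NLR sensors at the top to regulators at the bottom. Points are edgeR estimates, bars are standard errors from 2 libraries per group, and grey lines separate the roles. The red points, Nlrx1 at 0.99 and Il18 at 1.08, passed the adjusted threshold, and Il1b at -1.56 lies farthest to the left.

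Among NLR sensors of the NLRP group, Nlrp6 was the most abundant per length and did not differ detectably. Nlrp6, which acts in intestinal epithelium in mucus release and defence, lies on chromosome 7 from 140920902 to 140929192 (GRCm38). It stood at 189 CPM (counts scaled to the size of the library) in WT 1, 248 in WT 2, 188 in Esr2-KO 1 and 227 in Esr2-KO 2. The groups overlapped and each held a lower first and a higher second library. Its log2 fold change came to -0.07 ± 0.18 (SE, n = 2 per group; edgeR adjusted p = 0.849). It was above 0 in fits that left out WT 2 (0.16) or Esr2-KO 1 (0.058).

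Nlrp10, a short NLR without leucine-rich repeats (chromosome 7, 108921852 to 108930178), had the smallest p of the tested NLRP sensors. It stood at 3.39 and 3.82 CPM in the WT pair against 10.3 and 7.85 CPM in the Esr2-KO pair, so that the groups did not overlap. The log2 fold change came to 1.33 ± 0.25 (SE, n = 2 per group), and its edgeR adjusted p of 0.0501 lay just outside the threshold. It passed under 6 of 14 alternatives, with adjusted p from 6.71e-04 with DESeq2 to 0.227 without WT 1.

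Nlrp1b stood at 13 and 18.4 CPM in the WT pair against 19.1 and 15.9 CPM in the Esr2-KO pair. Its groups overlapped and its log2 fold change was 0.16 ± 0.22, or -0.070 if WT 1 was left out. Nlrp3, which answers potassium loss from the cell, was near the lower end of what these libraries measure, with 14 and 43 counts in the WT pair against 21 and 3 in the Esr2-KO pair (log2 fold change -1.10 ± 0.90, edgeR adjusted p = 0.533). That value was -0.39 without Esr2-KO 2, -0.039 without WT 2 and -2.78 without Esr2-KO 1, so that single libraries decided its size. Nlrp1a was below the filter with 5, 4, 4 and 0 counts, and Nlrp2 and Nlrp12 had 0 counts in all 4 libraries, which allows up to 0.0826 to 0.114 CPM per library from counting error alone.

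Of the 6 NLRC, NOD and NLRX sensors 1 passed the test. Nlrx1, an NLR that sits at mitochondria and dampens antiviral and NF-κB signalling, rose in Esr2-KO colon. It lies on the reverse strand of chromosome 9 from 44252717 to 44268599. Nlrx1 stood at 13.5 and 13.7 CPM in the WT pair against 26.3 and 27.7 CPM in the Esr2-KO pair, with little spread inside either group. Its log2 fold change came to 0.99 ± 0.14 (SE, n = 2 per group; edgeR adjusted p = 0.0265). The call ended without WT 1 (adjusted p = 0.132), without WT 2 (0.0883) and with library totals in place of TMM scaling factors (0.0559, log2 fold change 0.82), in a range of 1.14e-05 to 0.132 over 14 alternatives. On the opposite strand the gene Gm10686, which is not in the count table, shares 683 exon bases with Nlrx1, and 10.9% of the 50-base stretches of Nlrx1 transcripts also occur in another gene.

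The 300 bases around the RefSeq start sites of Il18 and Nlrx1, the genes that passed, are shown to set their start regions side by side (RefSeq, GRCm38.p6, written 5′ to 3′ on the strand of the gene). The Il18 window is chr9:50554450-50554749 on the forward strand and the Nlrx1 window chr9:44268550-44268849 on the reverse strand. Each runs from 250 bases before the start site to 50 bases from it on, and the RefSeq start of Il18 lies before the GENCODE start of the gene. Capitals mark matches, on either strand, to 7 motifs that were searched.
Il18: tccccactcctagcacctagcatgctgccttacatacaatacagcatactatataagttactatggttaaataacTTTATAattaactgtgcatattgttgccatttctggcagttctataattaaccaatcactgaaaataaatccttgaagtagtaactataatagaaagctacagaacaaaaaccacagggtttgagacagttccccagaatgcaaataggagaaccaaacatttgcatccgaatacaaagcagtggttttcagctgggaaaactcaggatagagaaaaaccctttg
Nlrx1: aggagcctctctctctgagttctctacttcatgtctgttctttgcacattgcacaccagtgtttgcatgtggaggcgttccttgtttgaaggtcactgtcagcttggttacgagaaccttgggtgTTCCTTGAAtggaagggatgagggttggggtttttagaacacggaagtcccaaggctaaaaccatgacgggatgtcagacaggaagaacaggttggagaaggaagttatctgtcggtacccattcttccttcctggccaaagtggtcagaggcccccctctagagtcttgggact

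The motifs were the TATA box TATAAA, the E-box CACGTG, the AP-1 site TGANTCA, the NF-κB site GGGANNNNCC, the STAT element TTCNNNGAA, the interferon element GAAANNGAAA and the estrogen response element GGTCANNNTGACC, and no matches overlapped in these windows. Il18 held 1 match, to the TATA box on the reverse strand from -175 to -170, and Nlrx1 held 1 match, to the STAT element from -125 to -117. The TATA letters were held by 13.6% and the STAT letters by 8.3% of 32851 RefSeq promoters of this length, so that neither match is rare. Of the 34 genes 28 had a promoter there, and Gsdma, Gsdmc2, Gsdmc4, Gsdmd, Nlrc5 and Nlrp10 had none. None of the 28 windows held the letters of the estrogen response element, which 0.07% of all promoters held, or those of the interferon element, which 3.44% held. The 2 genes thus shared no motif of this search, and a match is a description of letters, not of binding.

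Nlrc5, the transactivator of MHC class I genes, was lower without passing the test. Nlrc5 stood at 7.74 and 9.08 CPM in the WT pair against 4.97 and 2.73 CPM in the Esr2-KO pair, both below WT (log2 fold change -1.12 ± 0.33, edgeR adjusted p = 0.127). Its size was -0.75 without Esr2-KO 2 and -1.62 without Esr2-KO 1, where it passed (adjusted p = 0.0118, in a range of 0.0118 to 0.349). Nod2, an intracellular receptor of peptidoglycan fragments that is well known from Paneth cells and myeloid cells, stood at 4.79 and 2.99 CPM in the WT pair against 3.04 and 0.455 CPM in the Esr2-KO pair. The Nod2 groups overlapped, and the lowest value came from Esr2-KO 2, which had 12 counts. The log2 fold change of Nod2 was -1.13 ± 0.74 (edgeR adjusted p = 0.439), and it was -0.35 without Esr2-KO 2 and -3.08 without Esr2-KO 1 (adjusted p = 0.00754, in a range of 0.00754 to 0.811).

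Nod1, the related peptidoglycan receptor, was at 22.9 and 20.2 CPM in the WT pair against 24.6 and 24.9 CPM in the Esr2-KO pair, with a log2 fold change of 0.20 ± 0.14. Nlrc4, which forms the inflammasome with NAIP receptors, was at 34.3 and 42.1 CPM in the WT pair against 36.4 and 29.0 CPM in the Esr2-KO pair (-0.22 ± 0.17). Nlrc3, a dampener of T cell and STING signalling, had 32 and 51 counts in the WT pair against 25 and 31 in the Esr2-KO pair (-0.31 ± 0.52), a value that was 0.13 in the fit without WT 2. Adjusted p of these 3 genes ran from 0.469 to 0.778.

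The NAIP receptors, which bind bacterial flagellin or parts of the needle apparatus and hand the signal to Nlrc4, lie in a row on chromosome 13 between 100144063 and 100452869. Their summed level was nearly level across the libraries, at 348 and 357 CPM in the WT pair against 340 and 314 CPM in the Esr2-KO pair. Naip1, for the needle protein, was the largest part at 198 and 201 CPM in the WT pair against 185 and 171 CPM in the Esr2-KO pair (log2 fold change -0.16 ± 0.12). Naip2, for the inner rod protein, was at 55.9 and 56.6 CPM in the WT pair against 51.5 and 42.8 CPM in the Esr2-KO pair, with a log2 fold change of -0.25 ± 0.13 and an edgeR adjusted p of 0.325. Of the flagellin receptors, Naip6 was at 71.0 and 71.8 CPM against 79.2 and 79.1 CPM (0.15 ± 0.10, and -0.016 with library totals) and Naip5 at 22.9 and 27.5 CPM against 23.7 and 21.5 CPM (-0.16 ± 0.15, and 0.00017 without WT 2). Between 19.1% and 36.9% of the 50-base stretches of each NAIP gene occur in another gene, and the largest sharing of Naip1 is with Naip3, which is outside this sum, so that the split of reads is uncertain and the sum may hold reads of Naip3.

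Of the sensors outside the NLR family, Aim2, which binds DNA in the cytosol, was the more abundant. Aim2 stood at 64.3 and 79.4 CPM in the WT pair against 72.0 and 56.6 CPM in the Esr2-KO pair (log2 fold change -0.16 ± 0.16), with overlapping groups, and the value was 0.018 in the fit without WT 2. Mefv, which encodes pyrin, had 82 and 44 counts in the WT pair against 35 and 31 in the Esr2-KO pair (-0.68 ± 0.46, edgeR adjusted p = 0.447).

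Pycard, the adaptor that several of these sensors recruit, stood at 172 and 170 CPM in the WT pair against 164 and 142 CPM in the Esr2-KO pair (chromosome 7, 127989708 to 127993867). Both Esr2-KO values were below WT, Esr2-KO 2 by more, with a log2 fold change of -0.16 ± 0.13 and an edgeR adjusted p of 0.517. The ratio of Nlrp6 to Pycard counts within a library was 1.10 and 1.46 in WT and 1.15 and 1.6 in Esr2-KO, with overlapping groups.

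The 3 inflammatory caspases sit side by side on chromosome 9, from 5298517 for Casp1 to 5373032 at the end of Casp12, and all had negative log2 fold changes without passing the test. Casp1 stood at 209 and 256 CPM in the WT pair against 194 and 141 CPM in the Esr2-KO pair, with a log2 fold change of -0.47 ± 0.19 and an edgeR adjusted p of 0.226. Casp4 stood at 51.7 and 65.0 CPM in the WT pair against 37.5 and 18.8 CPM in the Esr2-KO pair, with a log2 fold change of -1.05 ± 0.31 and an edgeR adjusted p of 0.127. For both caspases the Esr2-KO libraries were below WT, and Esr2-KO 2 was the lowest library. Casp12, a close relative, was at 16.3 and 18 CPM in the WT pair against 16.3 and 10.7 CPM in the Esr2-KO pair (-0.34 ± 0.23, edgeR adjusted p = 0.452).

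Casp4 counts were a smaller fraction of Casp1 counts in Esr2-KO, at 0.193 and 0.133, than in WT, at 0.247 and 0.254. This ratio needs no scaling between libraries, adds no separate result to the values of Casp4 and Casp1, and was not tested. Without Esr2-KO 2 the log2 fold change of Casp4 was -0.63 (adjusted p = 0.146), and without Esr2-KO 1 it was -1.63 (adjusted p = 7.15e-04). Over its 14 alternatives Casp4 passed in 4, with adjusted p from 7.15e-04 to 0.335. Casp1 was -0.26 without Esr2-KO 2 and -0.72 without Esr2-KO 1 (adjusted p = 0.0465, in a range of 0.0465 to 0.622).

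Gasdermins were the most abundant family per length through the gasdermin C genes, a cluster on chromosome 15 that is active in gut epithelium. Gsdmc4 stood at 1178 and 1533 CPM in the WT pair against 1698 and 1296 CPM in the Esr2-KO pair (log2 fold change 0.14 ± 0.25). Gsdmc2 stood at 368 and 556 CPM in the WT pair against 516 and 283 CPM in the Esr2-KO pair (-0.21 ± 0.32). In both genes the groups overlapped and neither direction held with each library left out. Gsdmc4 was -0.034 if WT 1 was absent and -0.060 if Esr2-KO 1 was, and Gsdmc2 was 0.13 if WT 2 was absent and 0.16 if Esr2-KO 2 was. Their sum was 1546 and 2089 CPM in the WT pair against 2213 and 1579 CPM in the Esr2-KO pair.

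The first 120 coding bases of the 4 gasdermin C genes are shown because their likeness limits how counts are divided (GENCODE M21, GRCm38, reverse strand of chromosome 15, 5′ to 3′). Capitals mark the 15 positions at which at least 1 of the genes differs. They come from chr15:63804473-63804592 for Gsdmc, chr15:63835824-63835943 for Gsdmc2, chr15:63869178-63869297 for Gsdmc3 and chr15:63902811-63902930 for Gsdmc4.
Gsdmc: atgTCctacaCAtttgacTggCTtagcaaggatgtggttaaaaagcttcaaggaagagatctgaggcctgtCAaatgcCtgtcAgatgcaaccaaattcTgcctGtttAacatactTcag
Gsdmc2: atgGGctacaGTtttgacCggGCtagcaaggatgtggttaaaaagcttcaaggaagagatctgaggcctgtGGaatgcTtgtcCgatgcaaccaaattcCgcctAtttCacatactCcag
Gsdmc3: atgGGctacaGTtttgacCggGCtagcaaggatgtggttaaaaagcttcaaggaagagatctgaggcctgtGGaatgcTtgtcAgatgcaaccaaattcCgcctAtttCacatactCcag
Gsdmc4: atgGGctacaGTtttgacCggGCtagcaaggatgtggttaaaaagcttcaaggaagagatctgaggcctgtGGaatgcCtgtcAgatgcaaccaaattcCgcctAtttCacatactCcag

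Over the whole coding sequence Gsdmc2 and Gsdmc4 were 93.5% identical, Gsdmc2 and Gsdmc3 97.1%, and Gsdmc differed more, at 86.1% to 86.4%. The longest identical run between Gsdmc2 and Gsdmc4 was 146 bases and that between Gsdmc2 and Gsdmc3 272 bases. Of the 50-base stretches of Gsdmc2 transcripts 51.3% occur in another gene, and of Gsdmc4 39%, so that single values of these genes are uncertain. Gsdmc3, which is not among the 34, stood at 90.5 and 151 CPM in the WT pair against 190 and 189 CPM in the Esr2-KO pair (0.65 ± 0.23, edgeR adjusted p = 0.186).

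Gsdmd, the pore former that caspase-1 and caspase-11 cut, was higher in both Esr2-KO libraries and lay just outside the threshold. Gsdmd (chromosome 15, 75862327 to 75867408) stood at 72.9 and 95.3 CPM in the WT pair against 136 and 153 CPM in the Esr2-KO pair, with no overlap. Its log2 fold change came to 0.78 ± 0.16 (SE, n = 2 per group; edgeR adjusted p = 0.0577). It passed under 7 of 14 alternatives, among them DESeq2 (2.23e-04), limma-voom (0.0487) and the replicate number as a block (0.0432), and reached 0.212 without WT 1. No 50-base stretch of Gsdmd occurs in another gene. Gsdma, known from skin, was scarce, with 38 and 80 counts in the WT pair against 63 and 39 in the Esr2-KO pair and a log2 fold change of -0.01 ± 0.49 that was 0.68 without WT 2 and -0.47 without WT 1.

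**Figure D2:**
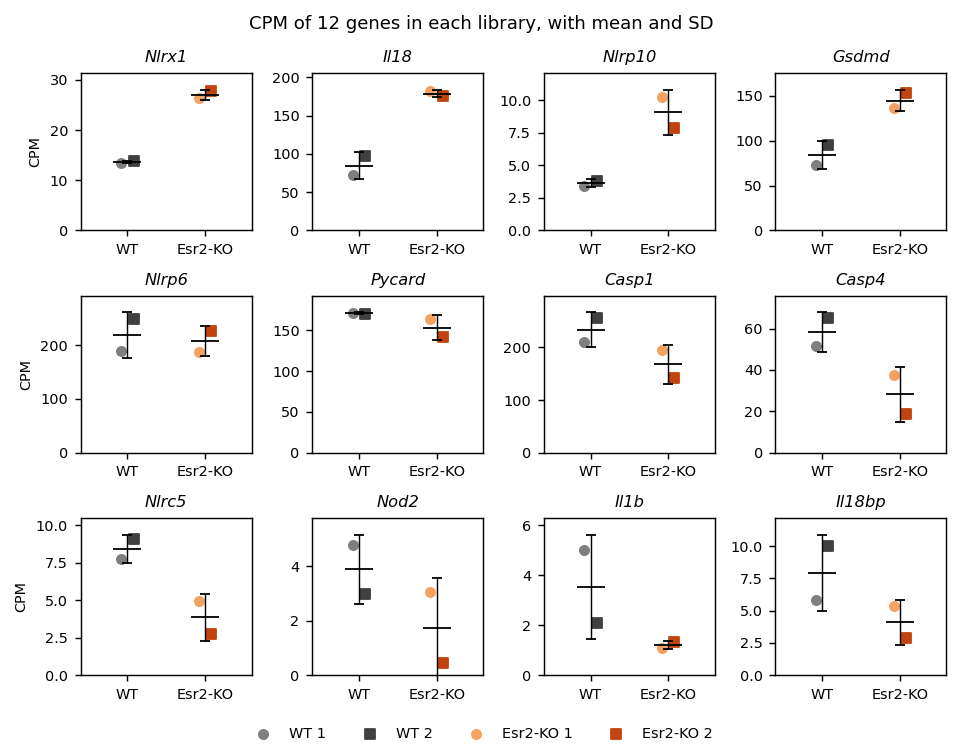
CPM (vertical axes, each starting at 0) of 12 genes in WT and Esr2-KO, 1 point per library, with the group mean and SD of 2 libraries as black bars that end at 0 where they would go below it. Nlrx1, Il18, Nlrp10 and Gsdmd are above WT in both Esr2-KO libraries, Nlrp6 overlaps, and Casp4 and Nlrc5 are lowest in Esr2-KO 2.

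Of the cytokine genes and the IL-18 inhibitor only Il18 passed the test. Il18, kept as an inactive precursor until caspase-1 cuts it, rose (chromosome 9, 50554827 to 50581840). Il18 stood at 72.1 and 96.8 CPM in the WT pair against 182 and 175 CPM in the Esr2-KO pair, and the Esr2-KO libraries were close to each other and well above WT. The log2 fold change came to 1.08 ± 0.16 (SE, n = 2 per group; edgeR adjusted p = 0.0300). It passed under 13 of 14 alternatives and not without WT 1 (log2 fold change 0.88, adjusted p = 0.0700), in a range of 4.43e-08 to 0.0700. No 50-base stretch of Il18 occurs in another gene.

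Il1b (chromosome 2, 129364570 to 129371139) had 182 and 72 counts in the WT pair against 37 and 35 in the Esr2-KO pair, or 5.01 and 2.07 against 1.08 and 1.33 CPM. Both Esr2-KO libraries were below WT, while the WT libraries differed from each other by more than WT 2 did from Esr2-KO. Its log2 fold change was -1.56 ± 0.50 (edgeR adjusted p = 0.149), and -0.78 without WT 1 (adjusted p = 0.663, in a range of 0.0283 to 0.663). Il18bp, the secreted protein that binds and blocks IL-18, stood at 5.84 and 10.03 CPM in the WT pair against 5.35 and 2.88 CPM in the Esr2-KO pair, with a log2 fold change of -0.94 ± 0.39 and an edgeR adjusted p of 0.243. It was -0.48 without WT 2 and -1.45 without Esr2-KO 1 (adjusted p = 0.0455, in a range of 0.0455 to 0.675).

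Set against each other within a library, Il18 had 12.3 and 9.65 times the counts of Il18bp in WT and 34 and 60.8 times in Esr2-KO. Il18 had 0.344 and 0.378 of the counts of Casp1 in WT and 0.937 and 1.24 in Esr2-KO. For Gsdmd and Casp1 the ratio was 0.348 and 0.372 in WT and 0.700 and 1.08 in Esr2-KO. The groups did not overlap in these 3 ratios, and this was fixed by the values of the single genes. Il18 and Gsdmd were above WT in both Esr2-KO libraries, and Il18bp and Casp1 were below WT in both. The ratios thus add no separate result. They need no scaling between libraries and were chosen after the values were seen, with no test.

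None of the 4 regulators passed the test, where edgeR gave 0 at an unadjusted p under 0.05 and DESeq2, limma-voom and the likelihood ratio test called 0. Nek7, the kinase that NLRP3 needs to assemble, was at 103 and 101 CPM in the WT pair against 92.1 and 71.9 CPM in the Esr2-KO pair (log2 fold change -0.32 ± 0.14, edgeR adjusted p = 0.276). Txnip, a glucose-induced inhibitor of thioredoxin that can bind NLRP3, was abundant at 844 and 1045 CPM in the WT pair against 1023 and 1081 CPM in the Esr2-KO pair (0.16 ± 0.20, and -0.010 with library totals). Ninj1, which ruptures the membrane after pores form, was at 38.8 and 38.5 CPM in the WT pair against 40.8 and 46.8 CPM in the Esr2-KO pair (0.18 ± 0.13). P2rx7, a channel opened by extracellular ATP, was at 11.4 and 13.2 CPM in the WT pair against 12 and 14.3 CPM in the Esr2-KO pair (0.10 ± 0.19, and -0.077 with library totals). Adjusted p of Txnip, Ninj1 and P2rx7 ran from 0.472 to 0.814.

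**Figure D3:**
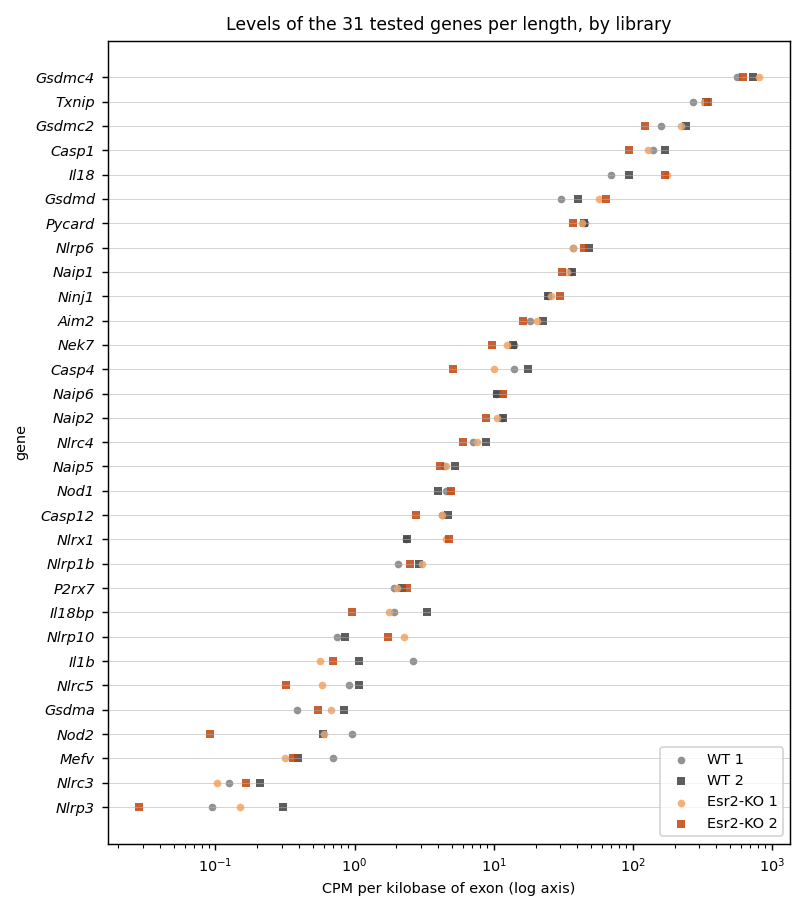
Level of the 31 tested genes in CPM per kilobase of exon (horizontal log axis), 1 point per library, ordered by the mean of all 4. Gsdmc4 is highest at a mean of 683, Casp1 and Il18 are at 134 and 128, Pycard and Nlrp6 at 42.7 and 41.9, and Nlrp3 is lowest at 0.145.

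Per kilobase of exon in GENCODE M21, the tested members spanned a wide range of levels. Gsdmc4 had a mean of 683 CPM per kilobase over the 4 libraries, Txnip 320, Gsdmc2 186, Casp1 134 and Il18 128. Gsdmd, Pycard and Nlrp6 followed at 48.1, 42.7 and 41.9 CPM per kilobase. In single libraries Pycard ranged from 37.4 to 45.2 and Nlrp6 from 37.0 to 48.9 CPM per kilobase, so that their order is within their spread. Naip1 at 34.1, Aim2 at 19.4, Casp4 at 11.7, Nlrc4 at 7.38, Nod1 at 4.56, Casp12 at 3.99 and Gsdma at 0.611 CPM per kilobase were lower. Il1b, at 0.567 to 2.63 CPM per kilobase, was below Il18, at 69.9 to 177, in every library, and Nlrp3 did not exceed 0.305. The exon lengths are those of all annotated exons joined, which may differ from the transcripts made in colon.

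**Figure D4:**
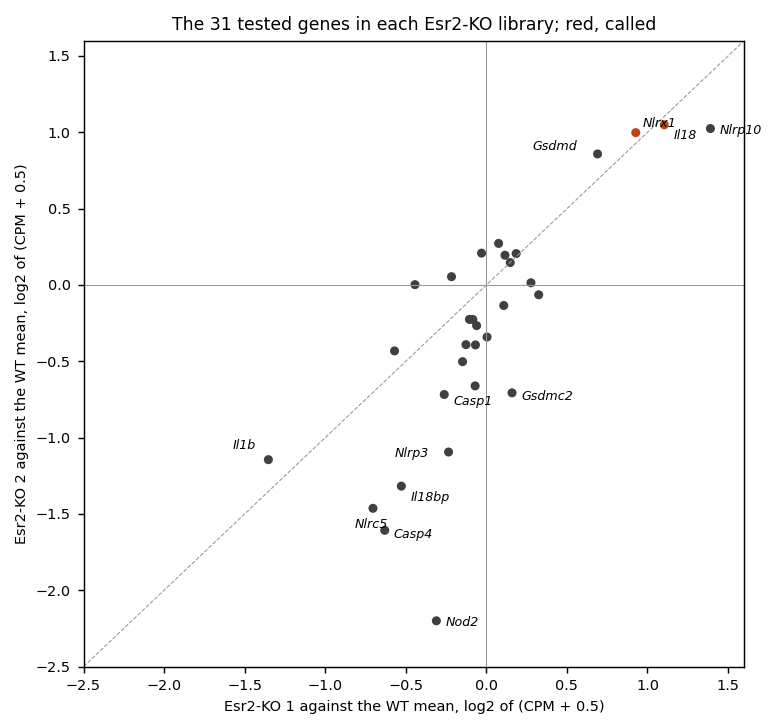
Each tested gene's log2 ratio to the WT mean in Esr2-KO 1 (horizontal) and Esr2-KO 2 (vertical), from CPM + 0.5, with the line of equality dashed. Il18 and Nlrx1 (red) lie on the line near 1, and Nod2, Casp4, Nlrc5 and Il18bp lie below it.

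The Esr2-KO libraries differed from each other in several of these genes. Esr2-KO 2 was lower than Esr2-KO 1 in 21 of the 31 tested members, against 52.2% of all tested genes. Set against the mean of both WT libraries, the median member was at -0.07 in Esr2-KO 1 and -0.23 in Esr2-KO 2 on the log2 scale. Both Esr2-KO libraries held more acinar transcripts than WT, at a summed 865 CPM in Esr2-KO 1 and 217256 CPM in Esr2-KO 2 against 157 and 181 CPM, and all 14 tested acinar genes had both Esr2-KO libraries above WT. When the acinar genes were left out before scaling, Il18, Nlrx1 and Nlrp10 passed (Nlrp10 adjusted p = 0.0484), and without Esr2-KO 2 the same 3 genes passed. Without Esr2-KO 1, when Esr2-KO 2 stood alone for its genotype, 8 members passed beside 1804 of 17984 genes in that fit, whose spread within a group comes from the WT pair alone: Gsdmd, Il18 and Nlrx1 higher and Casp1, Casp4, Il18bp, Nlrc5 and Nod2 lower.

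**Figure D5:**
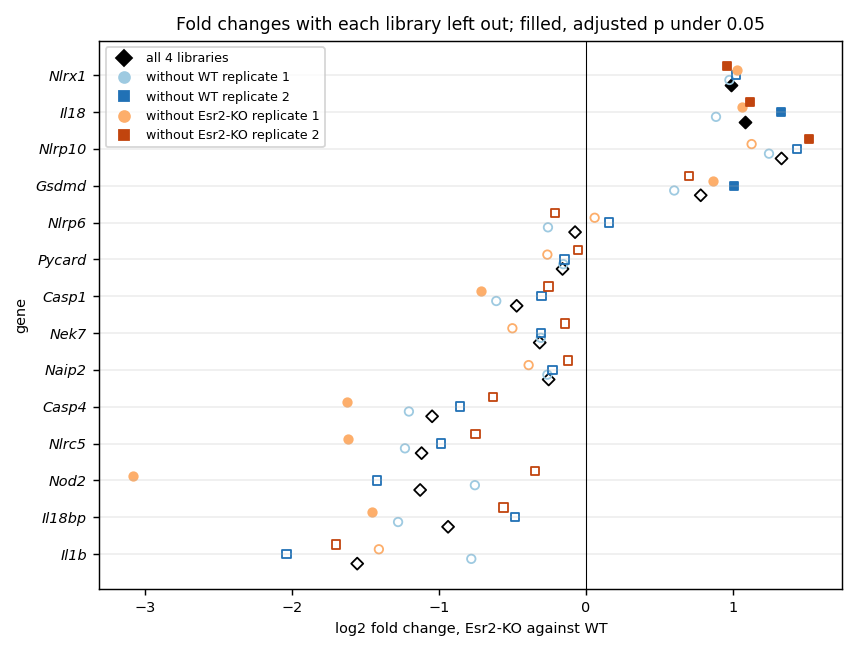
Log2 fold change of 14 genes (horizontal axis) with all 4 libraries and with each library left out, filled where the adjusted p was under 0.05. Il18 runs from 0.88 to 1.33 and Nlrx1 stays near 1, Nlrp6 lies on both sides of 0, and Nod2 moves from -0.35 to -3.08.

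Marker lists of cell types that the tissue could hold are given as summed levels. No gene of the T and NK cell, B cell, macrophage or dendritic cell lists was called by edgeR, with 4, 3, 4 and 0 at an unadjusted p under 0.05. The 10-gene list of T and NK cell markers summed to 24.8 and 38.9 CPM in the WT pair against 20.3 and 12.7 CPM in the Esr2-KO pair, with all 9 tested genes negative and 1 gene at 0 in every library. The 12-gene list of macrophages and monocytes summed to 776 and 806 CPM in the WT pair against 798 and 712 CPM in the Esr2-KO pair, with no gene at 0. Its summed level overlapped between the groups, with Lyz2 as the largest part at 332 and 361 CPM against 352 and 271 CPM. The sum joins genes of opposite direction. In 8 of the 12 genes the groups did not overlap, 3 above and 5 below WT. This is 66.7%, beside 54.7% of all tested genes. Among 8 neutrophil markers Elane was at 0 in all libraries, S100a8 had at most 1 count and S100a9 at most 5. The sum was carried by Ly6g, which belongs to a family of similar genes and was the 1 gene of the list called (log2 fold change 2.97 ± 0.54, edgeR adjusted p = 0.0461). Retnlg, the other tested gene of this list, went the other way. It had 105 and 90 counts in the WT pair against 68 and 1 in the Esr2-KO pair (-1.39 ± 1.04, edgeR adjusted p = 0.494). B cell markers summed to 10.2 and 28.8 CPM in the WT pair against 66.5 and 31.1 CPM in the Esr2-KO pair. The 10-gene list of general epithelial markers summed to 9984 and 8963 CPM in the WT pair against 10247 and 10256 CPM in the Esr2-KO pair. The 6 colonic epithelial products summed to 21289 and 23211 CPM in the WT pair against 18050 and 14341 CPM in the Esr2-KO pair. In these 2 lists Cdx2, a transcription factor of gut epithelium, fell by 2.03 ± 0.34 on the log2 scale (edgeR adjusted p = 0.0373) and Car1, a carbonic anhydrase of colonocytes, fell by 2.11 ± 0.39 (0.0469). The mucin gene Muc2 of goblet cells was at -1.59 ± 0.40 (0.0945). Others had positive values without passing, such as Slc26a3, a chloride exchanger of colonocytes, at 0.80 ± 0.23 (0.119) and Cdx1 at 0.41 ± 0.14 (0.176), and 7 of the 10 general epithelial markers were positive. The part of any of these lists in the values of Il18, Nlrx1, Gsdmd, Casp1, Casp4, Nlrc5, Nod2 and Il18bp was not tested.

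Other genes of the pathway were taken from 8 lists of 73 genes, of which 59 were tested. Il1rn rose and Dfna5 fell, 2 of 59 or 3.39%, beside 2.69% of all genes. Il1rn encodes the IL-1 receptor antagonist and stood at 39.7 and 47.1 CPM in the WT pair against 106 and 87.1 CPM in the Esr2-KO pair (log2 fold change 1.16 ± 0.15, edgeR adjusted p = 0.0221). Dfna5, the gene of gasdermin E, stood at 21.2 and 20.7 CPM in the WT pair against 6.32 and 3.57 CPM in the Esr2-KO pair (-2.08 ± 0.28, edgeR adjusted p = 0.0257). The groups did not overlap for either gene. Neither passed without WT 1 (0.0686 and 0.0688), nor Dfna5 without WT 2 (0.0518), in ranges of 4.7e-09 to 0.0686 and 4.47e-10 to 0.0688. Over the 59 tested genes the median log2 fold change was -0.19, with 20 positive and 39 negative.

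In the remaining lists the genes with the smallest p did not pass. Of 13 genes of priming and adaptor signalling, Xiap, an inhibitor of apoptosis needed for Nod2 signalling, was at -0.58 ± 0.13 on the log2 scale (edgeR adjusted p = 0.0714) and Rela, a subunit of NF-κB, 0.48 ± 0.13 (0.117). Of 8 apoptotic caspases and death adaptors, Ripk3, the necroptosis kinase, was at -0.61 ± 0.16 (0.104). Of 6 genes of nucleic acid sensing, Ifi203 was at -0.71 ± 0.23 (0.157) and Tmem173, the gene of STING, at 0.48 ± 0.18 (0.203).

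All 4 guanylate binding protein genes, whose products open bacterial membranes to caspase-11 and AIM2, had negative values, beside 8637 of all 17169 genes tested. Gbp2 was at -0.79 ± 0.27 (edgeR adjusted p = 0.170) and Gbp7 at -0.87 ± 0.33 (0.207). With 1 library left out Gbp2 ran from -1.22 to -0.46 and Gbp7 from -1.44 to -0.47. Of 14 regulators and ion channels, Mark4 was at 0.70 ± 0.16 (0.0746) and the potassium channel gene Kcnk6 at -1.01 ± 0.28 (0.114). Their ranges with 1 library left out were 0.53 to 0.86 for Mark4 and -1.53 to -0.62 for Kcnk6. Of 12 further NLR genes 8 had 0 counts in every library, and the 2 that were tested were Ciita, the transactivator of MHC class II, at 0.06 ± 0.28 and Nlrp9b at 0.03 ± 0.17. The directions of Ciita and Nlrp9b turned under 3 alternatives each. Both subunits of the IL-18 receptor, named here after their values were seen, were below WT in both Esr2-KO libraries: Il18r1 was at -1.69 ± 0.39 (edgeR adjusted p = 0.0773) and Il18rap at -1.51 ± 0.47 (0.142).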

How the data were processed

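Per the submitters' processing notes the authors aligned reads with HISAT2 to mm10, and per the labels' protocols RNA was depleted of ribosomal RNA and made into directional libraries. The deposited values are whole-number counts per gene symbol with no normalization. The counting program, annotation and use of strand are steps not given in the sources used here. The series design text speaks of triplicates, and 2 libraries per genotype were analysed here.

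Low genes were removed by the default filterByExpr rule (a minimum count of 10 and a minimum total of 15). Counts were scaled by TMM, and edgeR 4.0.16 under R 4.3.3 gave the test (glmQLFit, glmQLFTest, two-sided, genotype only, 2 residual degrees of freedom), with Benjamini-Hochberg adjusted p under 0.05 as the threshold. CPM use TMM-scaled totals. Standard errors come from the F statistic and the coefficient. Floors of 3 counts cover counting error only. Positions, exon lengths and shared 50-base stretches come from GENCODE M21, a GRCm38 annotation, promoters from RefSeq GRCm38.p6, and coding sequences were aligned with mafft 7.526. Alternatives were other scalings, filters and tests (DESeq2 1.42.0, limma 3.58.1), a block for replicate number, leaving out each library, and leaving out acinar genes. The procedure was tested on simulated data. The members and lists were chosen with earlier results of these data known. All 34 members are named, with full statistics for those past the threshold, the 10 others with the smallest p, Nlrp6 and core parts. Of partner lists, genes past the threshold are named, or otherwise the 2 with the smallest p. A gene that this rule names is not reported here.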

Additional observations from a re-analysis of the deposited data

How the results depend on the processing

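With 2 libraries per genotype the counts of calls moved widely. The number of members called, 2 with all libraries, ranged from 0 to 8 with 1 library left out (0 without WT 1, 8 without Esr2-KO 1). It was 1 with library totals, 7 with no low-count filter, 6 with DESeq2, 4 with limma-voom, 5 with the likelihood ratio test, 0 at an adjusted p under 0.01 and 4 at 0.1. Over all genes the 462 calls ranged from 165 to 1804 with 1 library left out (165 without WT 1, 1804 without Esr2-KO 1). They were 695 with library totals (208 higher and 487 lower, against 223 and 239), 1916 with no filter, 1693 with DESeq2, 1341 with the likelihood ratio test, 5 at 0.01 and 1245 at 0.1. The 2 partner genes called became 0 to 17 with 1 library left out, 11 with no filter, 10 with DESeq2 and 7 with the likelihood ratio test. The cause of these moves was not tested. The members' median of -0.16 was -0.32 with library totals, which shift the median of all genes to -0.17, and -0.26 to 0.018 with 1 library left out.

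With the replicate number as a block 3 members were called, Gsdmd beside Il18 and Nlrx1, and 490 genes in all, 343 of them among the 462. The replicate numbers mark no shared litter or day in the labels. Over 17169 genes the difference of WT 1 from WT 2 correlated at -0.08 with that of Esr2-KO 1 from Esr2-KO 2. As Esr2-KO 2 stood apart by its acinar transcripts, this value cannot decide whether same-numbered libraries shared a litter or day.

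Of the 31 tested members 11 turned direction under at least 1 alternative. With 1 library left out the ranges were -0.070 to 0.44 for Nlrp1b, -0.26 to 0.16 for Nlrp6, -0.67 to 0.13 for Nlrc3, -0.28 to 0.00017 for Naip5, -0.34 to 0.018 for Aim2, -0.47 to 0.68 for Gsdma, -0.70 to 0.16 for Gsdmc2, -0.060 to 0.36 for Gsdmc4 and -0.026 to 0.22 for P2rx7. Outside the members they were -1.42 to 0.35 for Esr2, -0.31 to 0.37 for Ciita and -0.10 to 0.18 for Nlrp9b. Library totals gave -0.016 for Naip6, -0.010 for Txnip, -0.077 for P2rx7, -0.068 for Ciita and -0.14 for Nlrp9b. Gsdma was 0.0023 with no filter, 0.12 with limma-voom and 0.084 with the replicate block. Low counts limit Nlrp3, Nlrc3, Nod2, Mefv, Gsdma and Il1b, and near-identical copies limit the Naip and Gsdmc genes. Besides Nlrx1, Txnip shares 606 exon bases with Gm15441 and Pycard 485 with Gm45205, both on the opposite strand. Of the 50-base stretches of Txnip 15.7% and of Pycard 11.7% occur in another gene.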

Other observations

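Naip3, a relative of the NAIP receptors that shares 22.5% of the 50-base stretches of Naip1, is not among the 34 genes and was looked at after the values were seen. Naip3 had 525 and 447 counts in the WT pair against 275 and 213 in the Esr2-KO pair, or 14.5 and 12.8 against 8.04 and 8.08 CPM. Both Esr2-KO libraries were below WT, with a log2 fold change of -0.76 ± 0.19 (SE, n = 2 per group) and an edgeR adjusted p of 0.0872. Numa1, which shares 80 exon bases with Il18bp on the opposite strand, was at -0.29 ± 0.12 on that scale (edgeR adjusted p = 0.232).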
